A study of Mus musculus with 40 samples.

Results

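The kidney of Tg mice was compared with 4 other tissues of the same 3 mice, to describe which genes the kidney expressed more strongly, or less strongly, than pancreas, ovary, heart and small intestine. Of the 40 libraries of the series, 3 kidney libraries and 12 libraries of the other tissues were used. A gene was called kidney-enriched when its kidney level passed the test against each of the 4 tissues (limma, Benjamini-Hochberg adjusted p below 0.05) and the kidney mean lay at least 2 log2 units, which is 4-fold, above the highest of the other tissue means. It was called kidney-depleted when it passed each test and the kidney mean lay at least 2 log2 units below the lowest of them. The first rule held for 446 genes, 2.58% of the 17319 genes tested, and the second for 41 genes, 0.237%. The Tg mice were of the C57BL/6j strain, 60 days old, with the genotype Mdm2+/- Cag-CreERTg, and their tissues were flash frozen. Mdm2 is the ubiquitin ligase that keeps p53 low, so these mice carry a single functional copy of it, together with a Cre recombinase fused to the oestrogen receptor and driven by the broadly active Cag promoter. Each of the 3 mice gave all 5 tissues, an ovary included. The Tg libraries are the controls of the series. The labels give 24 hours after p53 activation for every Tg library, though their genotype lacks the FM allele of the FMTg mice. All groups compared shared the reduced Mdm2 dose, the transgene and that label, and no wild-type mouse was among them. The FMTg mice, whose genotype is Mdm2FM/- Cag-CreERTg, were used only to ask whether the same genes were found again. Genotype and sexes differed from the Tg group, so this is a repeat in other mice and not a like-for-like replicate. Same-numbered FMTg libraries do not all come from the same mouse.

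Each nephron begins at the glomerulus, where podocytes cover the filtering capillaries, and continues as a tubule whose successive segments carry different transporters. The proximal tubule takes back most of the filtered sodium, glucose, phosphate, amino acids and protein and secretes organic anions and cations. The thick ascending limb, the distal convoluted tubule and the collecting duct then adjust salt, calcium, water and acid under hormonal control, and the kidney makes renin, erythropoietin, active vitamin D and new glucose.

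The factor HNF4, a nuclear receptor of proximal tubule, gut and liver cells, binds sites that can hold the letters CAAAGTCCA, and matches are shown here to give the promoter context of enriched genes, 1 of which, Agxt2, is described below. RefSeq promoters (GRCm38.p6, 250 bases before to 50 bases after the gene start) were matched by symbol to 343 of the 446 enriched genes, 23 of the 41 depleted genes and 13287 of the genes tested. On either strand the string occurred in 6 enriched promoters (1.75%), in 0 depleted promoters and in 80 of all promoters (0.602%). The GATA factor string AGATAA occurred in 10.5% of enriched, 4.35% of depleted and 9.01% of all promoters. Neither string lies within the other, and a match describes letters in a window, not a bound site. In 4 of the 6 enriched genes the match lay before the gene start. Windows around these matches, 5′ to 3′ on the gene's strand with the match in capitals, follow for Aadat at chr8:60506037-60506075, Aspdh at chr7:44465368-44465406, Agxt2 at chr15:10358497-10358532 and Plcxd1 at chr5:110100424-110100462, all on the plus strand.
Aadat: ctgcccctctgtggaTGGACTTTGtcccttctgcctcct
Aspdh: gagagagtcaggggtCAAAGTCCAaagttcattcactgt
Agxt2: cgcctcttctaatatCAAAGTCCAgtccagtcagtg
Plcxd1: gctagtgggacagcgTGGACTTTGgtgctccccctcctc
The end of the match lay 63, 43, 12 and 111 bases before the start in these 4 genes, in the order listed. In Aadat and Plcxd1 the string is read on the opposite strand. The kidney means of the 4 genes lay 5.56, 3.76, 3.69 and 2.35 log2 units above the next tissue, and the genes were named after their values were seen.

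The kidney libraries held 15700319 to 16665073 reads, against 9871165 to 17366152 in the other Tg libraries. The 20 most abundant genes took 10.1% to 11.15% of the kidney reads and 50.01% to 59.57% of the pancreas reads. Mdm2 gave 918.1, 959 and 1040 normalised reads (reads divided by the library's size factor) in kidney replicates 1, 2 and 3, within the 799 to 1476 of the other 12 libraries. Several libraries held transcripts typical of another tissue. Intestine replicate 1 carried thick ascending limb genes at a median of 13.2% of their kidney level and cardiomyocyte genes at 11.3% of their heart level, while intestine replicate 2 carried the thick ascending limb genes at 0.129%. Ovary replicate 1 carried pancreatic acinar genes at 28.8% of their pancreas level. Among the kidney libraries, replicate 1 held 10670 summed normalised reads of 8 adrenal cortex markers against 651.5 and 63.75 in replicates 2 and 3, and replicate 3 held 59850 of 11 acinar markers against 13870 and 19760 in replicates 1 and 2. Since libraries numbered 1 stand apart most often, list counts and medians are also given without replicate 1 of every tissue where they moved by over 1.5 times, and smaller shifts are left out. The part of these transcripts in the differences was not tested, beyond those values.

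**Figure D1:**
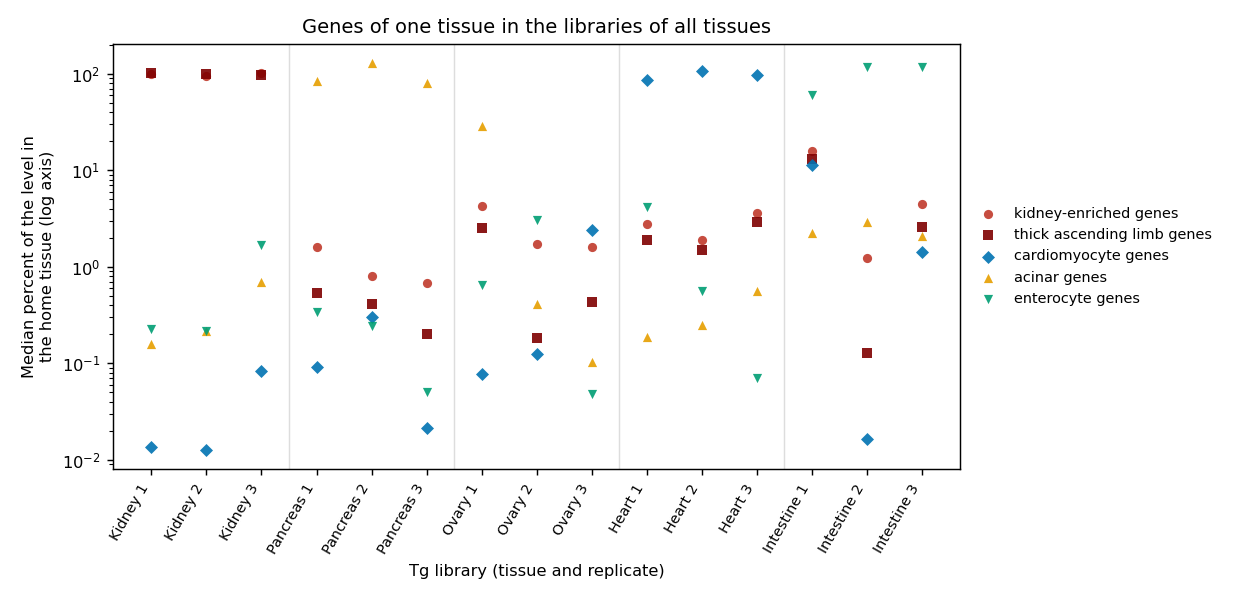
Median level of 5 gene lists in each Tg library, in percent of the mean level in the list's home tissue (log axis), with libraries along the x axis by tissue and replicate. The kidney-enriched and thick ascending limb genes lie near their home level in kidney and well below it elsewhere, with the highest values outside kidney, 15.9% and 13.2%, in intestine replicate 1.

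Against the mean of the 4 other tissues, 4247 genes were higher in kidney (24.5% of the genes tested) and 5360 lower (30.9%), with a median difference of −0.11 on the log2 scale over all genes. With the 12 other libraries fitted as 1 group, which adds the differences between their tissues to the error, 1528 genes were higher and 845 lower. Kidney exceeded pancreas for 5227 genes (30.2%), ovary for 3914 (22.6%), heart for 4191 (24.2%) and small intestine for 4339 (25.1%), and lay below them for 4277 (24.7%), 5481 (31.6%), 4553 (26.3%) and 5212 (30.1%). These splits moved with the scaling. On the recovered reads with TMM scaling, 5301 genes were higher and 4429 lower than the mean of the others, and 5519 higher and 4442 lower than ovary, while with each library centred on its median 3853 were higher and 5532 lower than pancreas. All 3 kidney libraries lay above all 12 others for 1709 genes (9.87%) and below them for 1121 (6.47%). Of the 446 enriched genes 445 were in the first set, and of the 41 depleted genes 40 were in the second. For genes that met a rule, the lack of overlap given below therefore nearly follows from the rule and is description only. A filter on low values kept 16 enriched genes that would not have passed on the other 12 libraries alone and 9 depleted genes that would not have passed on the kidney libraries alone, so these genes had to differ to be tested at all. The 446 genes lay a median of 3.21 log2 units above the highest other tissue, with a range of 2.0 to 6.25. That next tissue was small intestine for 219 genes, ovary for 94, heart for 94 and pancreas for 39. The intestine libraries were uneven for these genes, at a median of 15.9%, 1.23% and 4.44% of the kidney level in replicates 1, 2 and 3. Distances above intestine given below include replicate 1, and its part in the order of tissues was not tested. Without replicate 1 of every tissue 424 of the 446 enriched and 27 of the 41 depleted genes met the rule again. At the limit of 2, the growth hormone receptor gene Ghr lay just inside at 2.0001 and Pjvk just outside at 1.9972, while Adam23 at −2.0136 was the depleted gene nearest the limit and Sv2b at −1.9861 missed it.

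Among the gene families, 50 of 370 solute carrier genes (13.5%), 16 of 78 cytochromes P450 (20.5%), 6 of 25 proton pump subunits (24.0%), 5 of 19 claudins (26.3%) and 4 of 13 inward rectifier potassium channels (30.8%) were enriched, beside 2.58% of all genes. Near-identical copies within the Cyp4a, Slc22a, Ugt and Acsm families can share reads, which was not measured here, and their single values are uncertain. Per kilobase of transcript the strongest enriched gene was Kap, the kidney androgen-regulated protein, at a mean of 96300 normalised reads per kb, followed by Gpx3, the glutathione peroxidase secreted into plasma, at 62200.

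Umod, which encodes uromodulin, the main protein of normal urine, gave 74220, 71510 and 67790 normalised reads in the 3 kidney libraries. The other 12 libraries ran from 32.7 to 7597 with a median of 456.4, so the groups did not overlap, and the kidney mean lay 6.09 above heart, the next tissue (68.0-fold on this scale), and 7.34 ± 1.19 above the mean of the others (difference in log2 values ± SE, adjusted p = 2.17e-04). Cyp4a14, a fatty acid hydroxylase, had the largest distance from the next tissue, 6.25, with 24470, 23650 and 39270 reads in kidney and 0 to 3079 elsewhere. Its close relative Cyp4a31 followed at 6.17 with 3424, 4788 and 5594 reads against at most 238.2. Both genes belong to a family of transcripts that share sequence. Slc13a3, the sodium-dicarboxylate cotransporter of the basolateral membrane, came next with 8307, 10610 and 9326 reads against 7 to 934.9 and a distance of 6.12.

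The other 16 genes of the leading 20 lay 5.73 to 6.09 above the next tissue. Transporters made up most of them. Slc22a12, the urate exchanger URAT1, reached 11230, 14500 and 13790 reads against 2.335 to 1094. Slc22a6 and Slc22a8, the organic anion transporters OAT1 and OAT3, lay 5.90 and 5.88 above the next tissue, and Slc17a1, which exports organic anions and urate, lay 5.87 above it. Slc5a10 (sugar transport, 6.02), Slc6a18 (neutral amino acids, 5.85), Slco1a6 (organic anions, 5.79) and Slc12a1 (sodium, potassium and chloride, 5.86) completed the carriers. Kcnj16, a basolateral potassium channel, lay 6.07 above and Fxyd2, the gamma subunit of the sodium pump, 5.77. Lrp2, or megalin, the receptor that retrieves filtered protein, gave the most reads, 145400, 120100 and 99070, against 78 to 23920 elsewhere. The remaining members were Kap, the kidney cadherin Cdh16, the glycine-cleaving enzyme Gldc, Acnat2 and Ugt3a2.

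Glomerular genes were the least distinctive of the nephron lists. Of 9 podocyte genes 6 were higher, 1 was lower and 2 were enriched, with a median difference of 1.32 beside −0.11 for all genes. Ptpro, a receptor phosphatase of podocyte foot processes, gave 429.2, 477.9 and 451.8 reads against 12.89 to 113.5, with no overlap, and a difference of 3.16 ± 0.29 (adjusted p = 2.19e-06). It lay 2.04 above heart and was not called enriched without replicate 1. Nphs1, which encodes nephrin of the slit diaphragm, gave 543, 630.1 and 554.9 in kidney but a mean of 2067 in pancreas, so that the kidney lay 1.83 below that tissue. Podxl, the podocyte surface sialomucin that endothelium also makes, was close in kidney (3393, 3510 and 3445) and heart (mean 3334). Synpo, an actin-binding protein of podocyte foot processes and of muscle, was lower in kidney by a difference of −0.50 ± 0.20 (adjusted p = 0.0495), a call that was lost in many alternatives, among them those without kidney replicate 1, 2 or 3 (adjusted p = 0.131, 0.099 and 0.131). In whole tissue, fewer cells of a type and less RNA per cell cannot be told apart.

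Of 5 genes of juxtaglomerular and mesangial cells, all were higher and 2 were enriched. Ren1, which encodes renin, the enzyme that starts the angiotensin cascade, gave 992.6, 1359 and 894.1 reads against 0 to 84.01, and lay 5.76 ± 0.76 above the mean of the others (adjusted p = 4.48e-05). The kidney libraries were all above the others. Gata3, a transcription factor of mesangial and collecting duct cells, gave 229.1, 236.2 and 225.1 against at most 35.45. Akr1b7, known from juxtaglomerular cells and from adrenal cortex, was uneven at 1140, 107 and 41.71, in the same order as the adrenal cortex markers, and intestine had a mean of 1699. Its call as higher (2.21, adjusted p = 0.049) was lost in most alternatives, and without kidney replicate 1 the difference was 0.89 (adjusted p = 0.394). The part of adrenal transcripts in that order was not tested.

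All 26 proximal tubule genes were higher and 17 were enriched, with a median difference of 5.82. Slc34a1, the sodium-phosphate cotransporter NaPi-IIa, gave 37890, 25780 and 30100 reads against 9.598 to 6299, a difference of 7.19 ± 1.32 (adjusted p = 5.78e-04) and 5.71 over heart. Slc5a2, the glucose transporter SGLT2, gave 5269, 5369 and 5390 against 0 to 888.7 and lay 5.61 above the next tissue. Neither gene overlapped between kidney and the other tissues. The genes with the smallest p included Slc4a4, the basolateral sodium-bicarbonate cotransporter (4.79 ± 0.23, adjusted p = 2.16e-08), and Fbp1, a gluconeogenic phosphatase (6.19 ± 0.58, adjusted p = 2.96e-06). The 9 proximal genes that were not enriched were mostly shared with another tissue. Slc6a19, the neutral amino acid transporter B0AT1, gave 5880, 3460 and 4116 in kidney and a mean of 9405 in intestine, and Slc2a2, the glucose transporter GLUT2, lay 0.61 below intestine. Slc3a1, the heavy chain of the cystine transporter, lay 1.52 above intestine, and Slc5a12, a lactate transporter, 1.62 above it. Cyp27b1, the enzyme that makes active vitamin D, was low and uneven at 150.7, 32.5 and 61.39 reads against 2 to 20.04, and its enrichment, 2.15 over heart, was not called without replicate 1.

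Genes of the last proximal segment, some of which are known to be higher in male mice, were represented unevenly. Of 8 tested, 6 were higher and 3 enriched, with a median difference of 3.01. Kap gave 80560, 47830 and 75880 reads and Slc22a7, the organic anion transporter OAT2, gave 1733, 1013 and 1196, both above all other libraries. By contrast, 3 other members of the list were low. Slc7a13 gave 13.34, 5.548 and 3.935 reads, Cyp2j13 gave 27.46, 10.3 and 7.083, and Slco1a1 gave 1.569, 1.585 and 0, too few to be tested. A related carrier, Slc7a12, gave 4262, 2845 and 2660 and lay 5.40 above intestine.

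**Figure D2:**
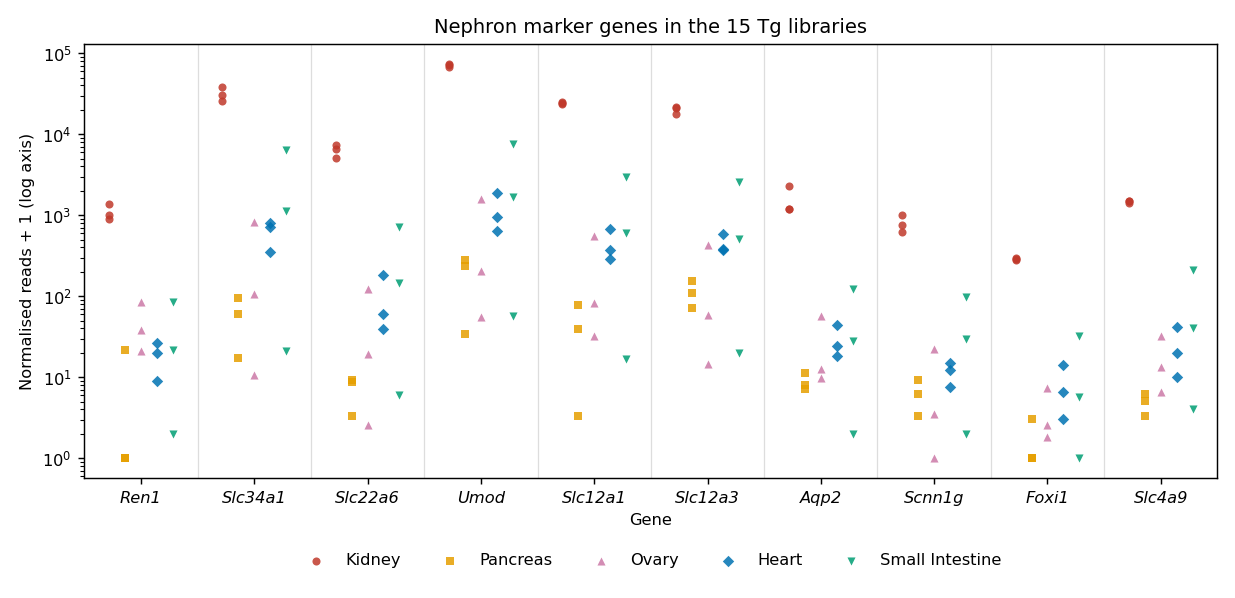
Normalised reads plus 1 (log axis) of 10 nephron genes in the 15 Tg libraries, 1 point per library, from glomerulus (Ren1) through proximal tubule (Slc34a1, Slc22a6), thick ascending limb (Umod, Slc12a1) and distal tubule (Slc12a3) to collecting duct (Aqp2, Scnn1g, Foxi1, Slc4a9). The 3 kidney points lie above every other point for each gene, and intestine replicate 1 is the highest of the rest for most.

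The thick ascending limb list was the most uniform. All 12 genes were higher and 11 were enriched, with a median difference of 5.75 and a median distance of 5.02 from the next tissue. Slc12a1, the furosemide-sensitive cotransporter NKCC2, gave 23660, 25330 and 24370 reads against 2.335 to 3002, a difference of 7.33 ± 1.18 (adjusted p = 2.03e-04). Kcnj1, the potassium channel ROMK that recycles potassium for it, gave 5300, 5375 and 4611 against 0 to 647.4. Bsnd, or barttin, a subunit of basolateral chloride channels, gave 793.3, 706.2 and 589.5 against 0 to 109.4, with no overlap. The paracellular magnesium and calcium pathway was present as Cldn16 (114.6, 96.69 and 95.23 reads) and Cldn19 (624.6, 654.7 and 505.3). Casr, the calcium-sensing receptor, gave 2572, 2517 and 1792 and lay 4.74 above intestine. Egf, made at high level in this segment, gave 29840, 28320 and 28810 against 68.79 to 4470. The transcription factor gene Irx2 was the member not enriched, since heart came within 0.94 of kidney.

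In the medulla list, 6 of 8 genes were higher and 4 enriched, with a median difference of 2.11. Slc14a2, the urea transporter of thin limb and inner medullary collecting duct, gave 441.8, 767.2 and 699.7 against at most 38.54. The osmolyte carriers Slc5a3 (myo-inositol) and Slc6a12 (betaine) were enriched by 2.66 and 2.73, and the taurine carrier Slc6a6 was higher by 1.17 ± 0.14 without reaching the enrichment rule. Nfat5, the tonicity-responsive factor that drives such genes, gave 2893, 3439 and 3154 in kidney and 2032 to 4801 elsewhere, a difference of 0.11 ± 0.12 (adjusted p = 0.448).

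Of 16 genes of the distal convoluted and connecting tubule 14 were higher and 7 enriched, with a median difference of 3.6. Slc12a3, the thiazide-sensitive cotransporter NCC, gave 20930, 21520 and 17820 reads against 13.6 to 2604, and lay 6.73 ± 1.06 above the mean of the others (adjusted p = 1.83e-04). Kcnj10, the partner of Kcnj16 in the basolateral potassium channel, gave 1035, 1070 and 1018 against 2.579 to 154.1. Both were above all other libraries. Calcium handling genes included Trpv5, the apical calcium channel (307.6, 307.5 and 225.9 reads, 5.26 ± 0.43), and S100g, calbindin D9k (5442, 5077 and 6077, 4.81 ± 0.42). The kinase gene Wnk4, a regulator of NCC, lay 1.90 above pancreas and so just missed enrichment. Klk1, tissue kallikrein, gave 16790, 16400 and 18190 in kidney but a mean of 130800 in pancreas, and its difference of 1.20 ± 0.68 did not pass (adjusted p = 0.152), though it did without ovary replicate 1 (1.53, adjusted p = 0.00287) or without the pancreas libraries (2.57, adjusted p = 0.0166).

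All 12 principal cell genes were higher and 8 enriched, with a median difference of 4.21. Aqp2, the vasopressin-regulated water channel, gave 2315, 1197 and 1179 reads against 1 to 123.3, with no overlap, and a difference of 5.99 ± 0.70 (adjusted p = 1.63e-05). Its upstream receptor gene Avpr2 gave 253.4, 259.2 and 202.3 against at most 30.06. The 3 subunits of the epithelial sodium channel, Scnn1a, Scnn1b and Scnn1g, lay 2.67, 4.57 and 4.87 above the next tissue. Nr3c2, the aldosterone receptor, was higher by 0.39 ± 0.13 (adjusted p = 0.0181, but 0.0882 without kidney replicate 2 and 0.0519 without kidney replicate 3) and had a mean of 1895 in intestine, above the kidney values of 733.7, 829.8 and 761.9. The enzyme that protects that receptor from glucocorticoids, Hsd11b2, was enriched at 1068, 1262 and 1118 reads, 2.38 above intestine.

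Of 15 intercalated cell genes 14 were higher and 11 enriched, with a median difference of 5.25. Foxi1, the transcription factor that specifies these cells, gave 294.3, 278.2 and 289.6 reads against 0 to 31.6, and lay 5.25 ± 0.57 above the mean of the others (adjusted p = 8.55e-06). Slc4a9, a basolateral anion transporter of beta intercalated cells, gave 1497, 1506 and 1402 against 2.335 to 210.4, and Slc26a4, pendrin, their apical chloride-bicarbonate exchanger, gave 1227, 889.3 and 920.8 against at most 181.9. The ammonia transporter Rhcg gave 1434, 1571 and 1725 reads and lay 5.35 above heart. In these 4 genes the kidney libraries stood clear of all others. Slc4a1, the anion exchanger of alpha intercalated cells and of red cells, gave 412.7, 500.9 and 536.8 in kidney and a mean of 560 in heart, which was also the tissue with the most globin reads.

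**Figure D3:**
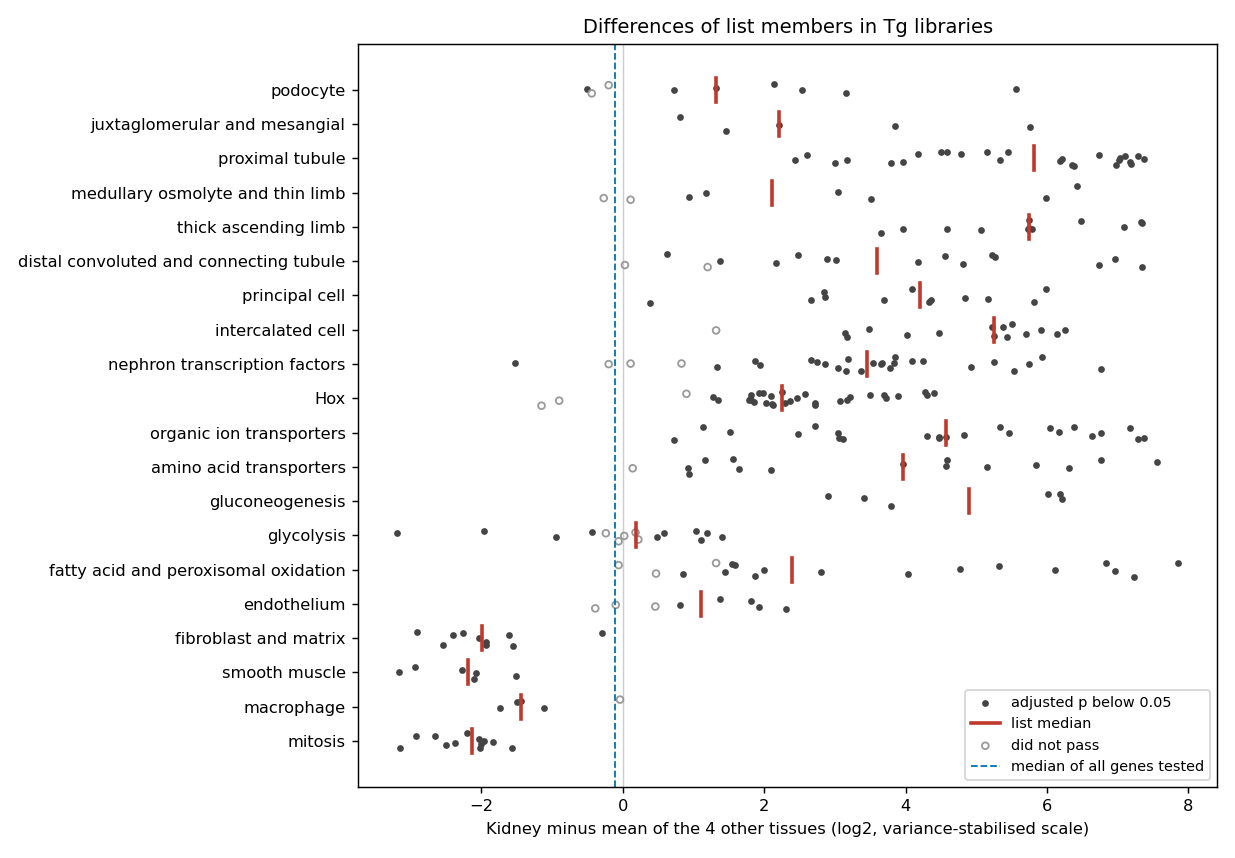
Difference between kidney and the mean of the 4 other tissues (log2, variance-stabilised scale) for each member of 20 gene lists, filled where the adjusted p was below 0.05 and open where it was not, with the list median as a bar. All tubule medians lie to the right of the median over all genes (−0.11, dashed), and the medians of the fibroblast, smooth muscle, macrophage and mitosis lists lie to its left.

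Of 28 transcription factors of the nephron 24 were higher, 1 was lower and 8 were enriched, with a median difference of 3.45. The greatest distances belonged to Pou3f3, a POU factor required for the distal nephron (1465, 1586 and 1658 reads, 5.63 above intestine), Tfap2b (5.39) and Emx1 (5.02). Sim1 gave 975.3, 989.1 and 997.2, and Lhx1, needed for early nephron formation, gave 237, 251.2 and 227.5 against at most 23.89. All 5 were above every other library. The factors shared with gut, pancreas or reproductive tract were higher on average without being enriched. Hnf4a gave 9979, 9021 and 9209 reads in kidney and a mean of 10890 in intestine, and Pax2 and Pax8 lay 1.38 and 1.14 above ovary. Osr1, which acts in the embryonic kidney field, was lower, at 27.46, 15.85 and 16.53 reads (−1.52 ± 0.29, adjusted p = 7.25e-04).

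Hox genes, which record position along the body axis, were mostly higher in kidney. Of 33 tested, 30 were higher and 3 enriched, with a median difference of 2.25. Their summed normalised reads were 6253, 7021 and 6277 in kidney and 181.1 to 3491 in the other libraries. Hoxd8 gave 1645, 1559 and 1446 reads against 5 to 311.9, Hoxb9 gave 342.9, 361.4 and 309.3 against 0 to 261.3, and Hoxa7 gave 333.5, 359 and 376.2 against 2 to 122.1. For each of the 3, ovary was the next tissue, at distances of 2.50, 2.92 and 2.42. Hoxb9 and Hoxa7 were not called enriched without replicate 1. Neighbouring Hox genes overlap antisense transcripts, and since the strand setting is not given in the sources used here, reads of the opposite strands cannot be told apart.

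Genes of renal hormones and their receptors were higher in 17 of 20 cases and enriched in 10, with a median difference of 2.97. Kl, or klotho, the co-receptor for the phosphate hormone FGF23, gave 7511, 6846 and 6296 reads against 9 to 1299 and lay 5.33 above intestine. Pth1r, the parathyroid hormone receptor, gave 5789, 7089 and 5843 against 36.1 to 901.8. Neither overlapped. Cyp24a1, which breaks down vitamin D and is induced by it, ranged widely within kidney, from 375.9 and 644.4 in replicates 1 and 2 to 2472 in replicate 3, and lay 4.98 above heart. Epo, erythropoietin, gave 3.139, 7.926 and 1.574 reads in kidney and 0 in all 12 others, so its values rest on few reads. It passed the filter on low values only through the kidney libraries. The vitamin D receptor gene Vdr gave 2125, 3302 and 4163 in kidney and a mean of 4966 in intestine, and the peptidase genes Enpep and Mme both had their highest mean in intestine.

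All 23 organic ion transporter genes tested were higher and 16 enriched, with a median difference of 4.57. Besides Slc22a6, Slc22a8 and Slc22a12 these included Slc22a2, the cation transporter OCT2 (1717, 1687 and 1904 reads, 5.30 above intestine), and Slc47a1, the proton-coupled exporter MATE1 (6369, 6036 and 6034, 2.04 above heart). The export pumps of the apical membrane were shared. Abcc2 gave 6493, 9670 and 9925 in kidney and a mean of 7364 in intestine, and Abcg2 lay 1.29 above intestine. Of 15 amino acid transporters 14 were higher and 5 enriched, and the median member lay 0.18 below the next tissue, a distance of −0.18, or −0.36 without replicate 1. Slc6a20b (proline, 3.44 above intestine), Slc6a13 (betaine and GABA, 5.30) and Slc1a1 (glutamate and aspartate, 2.63) were enriched, while Slc7a7 and Slc7a9 lay 0.29 and 0.18 below intestine.

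All 6 gluconeogenesis genes were higher and 4 enriched, with a median difference of 4.9. Pck1, which commits oxaloacetate to glucose, gave 36340, 108500 and 139900 reads, uneven within kidney yet above the 140.1 to 7663 of the others (6.22 ± 0.50, adjusted p = 8.61e-07). G6pc, which releases free glucose, gave 3965, 6061 and 8472 in the same order of replicates, and Pcx, pyruvate carboxylase, gave 11950, 14010 and 15820 against 1349 to 2628. Of 15 glycolysis genes 6 were higher, 4 lower, none enriched and 1 depleted, with a median difference of 0.18, beside 24.5% higher and 30.9% lower over all genes. Eno1 was higher by 1.41 ± 0.11 and Pgam1 by 1.11 ± 0.10, and the pyruvate kinase gene Pkm was lower, at 4023, 3593 and 3626 reads (−0.94 ± 0.08, adjusted p = 1.79e-06). Hk2, a hexokinase of muscle and growing cells, was the depleted member, at 217.4, 101.5 and 94.45 reads against 463.1 to 5041.

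Of 18 genes of fatty acid and peroxisomal oxidation 15 were higher and 8 enriched, with a median difference of 2.4. Besides Cyp4a14, Cyp4a10 gave 17180, 21460 and 29080 reads and Acaa1b, a peroxisomal thiolase, 4105, 4228 and 4048 against at most 491.7. Ehhadh, the peroxisomal bifunctional enzyme, gave 17810, 18800 and 22180 and lay 2.79 above intestine. Ppara, the receptor that induces many of these genes, gave 1241, 1752 and 2096 and was higher by 1.87 ± 0.16 (adjusted p = 1.12e-06) with a distance of 0.69 from heart. Of 17 genes of amino acid metabolism 16 were higher and 7 enriched, with a median difference of 4.09. Dao, D-amino acid oxidase, gave 3319, 2745 and 3746 against 0 to 604.3, Agxt2 lay 3.69 and Hgd 5.32 above intestine, and Prodh2, which degrades hydroxyproline, gave 1470, 1515 and 1321 against at most 266.7.

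Pairs of related genes divided between kidney and other tissues. Of the proton pump subunits, Atp6v0a4 and Atp6v1b1 gave 5552, 6055 and 7661 and 969.9, 1144 and 909 reads, and lay 5.01 and 5.17 above the next tissue. Their widely expressed counterparts differed less. Atp6v1b2 was higher by 1.24 ± 0.09 and Atp6v0a1 was lower (−0.68 ± 0.09, adjusted p = 6.43e-05). Slc12a2, the secretory relative of Slc12a1, was lower at 1102, 1077 and 1148 reads (−0.62 ± 0.13, adjusted p = 0.00127, but −0.24 and 0.0938 without the small intestine libraries). Cltrn, or collectrin, which brings amino acid transporters to the membrane, gave 7806, 6497 and 7334 and lay 5.49 above intestine. The NADPH oxidase gene Nox4 gave 7292, 5098 and 5386 reads and was enriched, whereas its phagocyte relative Cybb was lower (−0.72 ± 0.25, adjusted p = 0.0267, but 0.0634 without kidney replicate 2 and 0.127 without kidney replicate 3). Gp2, the pancreatic relative of uromodulin, had 539.9, 598.4 and 1670 reads in kidney, and the highest pancreas library reached 238400.

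The 41 depleted genes lay a median of 2.35 log2 units below the lowest other tissue, and the lowest tissue was pancreas for 15, ovary for 11, small intestine for 8 and heart for 7. Gata4, a transcription factor of heart, gut, gonad and pancreas development, stood apart from the others of the set. Its kidney values were 7.062, 7.926 and 29.12 reads, while the other 12 libraries ran from 690.1 to 2505 with a median of 1403, and the kidney mean lay 5.75 below ovary, the lowest of the others (53.7-fold on this scale), and differed from their mean by −6.24 ± 0.35 (adjusted p = 6.88e-08). Its relative Gata6 gave 71.4, 43.59 and 92.08 against 474.5 to 1819, a distance of −2.79 from pancreas. Neither overlapped. Gata3, the relative described above, was enriched in the same libraries.

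The next depleted genes included cytoskeletal and matrix genes. Pdlim1, an actin-associated adaptor, was even at 65.13, 66.58 and 65.32 reads against 411.1 to 1403, with a difference of −3.36 ± 0.16 (adjusted p = 1.91e-08). Flnc, filamin C of striated muscle, gave 134.2, 89.56 and 78.7 against 416 to 14290. Mmp2, gelatinase A, gave 106.7, 77.67 and 77.13 against 401.7 to 1404, and Mmp15, a membrane-bound metalloproteinase, 61.2, 69.75 and 88.15 against 361.4 to 3073. The groups did not overlap for any of these 4. The kinase gene Wnk2 was depleted (63.56, 72.12 and 118.1 reads against 257.5 to 5308) although its relative Wnk4 was higher. Ret, the receptor through which GDNF drives ureteric bud branching in the embryo, gave 18.05, 11.1 and 13.38 against 46.71 to 851.4. Igdcc4, Fstl4 and Dpysl4 also met the rule, the latter 2 with at most 1.574 reads in any kidney library. Adamts19 gave 0 reads in all 3 kidney libraries and 2.335 to 629.5 elsewhere. Alox15, a lipoxygenase, was the depleted gene whose groups overlapped, with 8.657 reads in kidney replicate 3 and 5.157 in the lowest other library.

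The depleted set also held metabolic, immune and cell cycle genes. Hk2, described above, belonged to it, whereas Hk1 was higher by 1.19 ± 0.29 (adjusted p = 0.00423, but 0.0861 without replicate 3 of every tissue). Fgl2, a prothrombinase-like fibrinogen relative of macrophages and T cells, gave 160.9, 146.6 and 181.8 against 993.3 to 2239, with the smallest p of the depleted genes described here (−3.18 ± 0.13, adjusted p = 1.06e-08). Lyz2, lysozyme of myeloid cells, gave 340.5, 199.7 and 182.6 against 849 to 2390, and Lyve1, of lymphatic endothelium and some macrophages, 77.68, 37.25 and 56.67 against 211 to 957. Ccnd2, cyclin D2, gave 488.1, 420.1 and 485.6 against 1996 to 3886. No kidney library reached the lowest other library in these genes. Lyz2, Lyve1 and Ccnd2 were named after their values were seen.

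**Figure D4:**
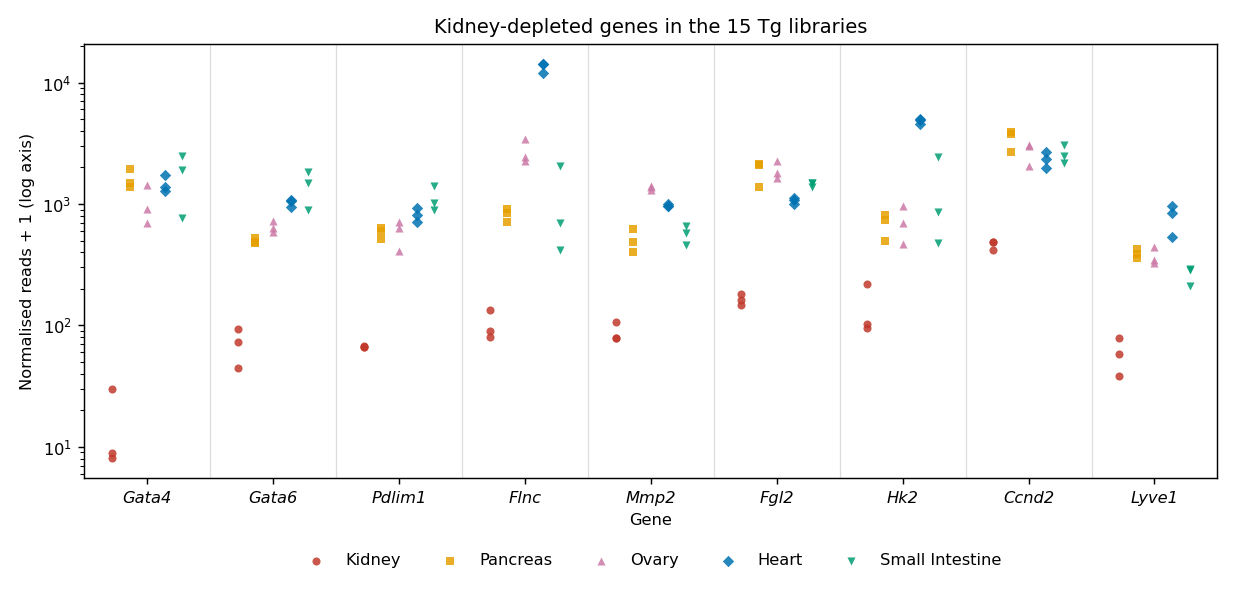
Normalised reads plus 1 (log axis) of 9 kidney-depleted genes in the 15 Tg libraries, 1 point per library. The 3 kidney points lie below all 12 others for each gene, and Gata4 shows the widest gap, from 29.12 reads in the highest kidney library to 690.1 in the lowest of the others.

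Lists of dividing and stromal cells were lower as groups than the mean of the 4 other tissues. Over all genes 30.9% were lower and 24.5% higher. All 12 mitosis genes were lower, with a median difference of −2.13. Mki67 gave 58.07, 39.63 and 73.98 reads against 82.27 to 2965 (−2.92 ± 0.40, adjusted p = 5.59e-05) and Top2a 56.5, 56.27 and 99.17 against 53.61 to 2486, so the second overlapped with the lowest libraries. Heart was the tissue nearest to kidney for most of this list, as for Aurkb, which lay 0.03 above heart. All 10 fibroblast and matrix genes were lower, with a median difference of −1.99, and 9 without replicate 1. Col1a1 gave 729, 728.4 and 527.3 reads against 887 to 21390 and Col3a1 2344, 1690 and 1458 against 2231 to 25710, and Lum had a difference of −2.91 ± 0.26. All 6 smooth muscle genes were lower (median −2.19), Des among them at −3.17 ± 0.32. Their summed reads overlapped with pancreas, at 1111 to 1602 in kidney and 787 to 3786 in pancreas. Of the macrophage genes 4 of 5 were lower (median −1.44), with C1qa at 259.7, 228.3 and 256.6 against 492.5 to 1182, and 4 of 6 lymphocyte and plasma cell genes were lower (median −1.64). Endothelial genes divided, with 5 of 8 higher and none enriched. Their summed reads were 9693 to 10820 in kidney and higher in heart, at 17230 to 21180. Ehd3, known from glomerular endothelium, was higher by 2.31 ± 0.17 and the fenestration gene Plvap by 1.81 ± 0.15.

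Markers of pancreas, ovary and heart were mostly lower in kidney than the mean of the 4 other tissues. Those of small intestine mostly did not pass in this contrast, though kidney lay far below intestine itself. Summed reads of enterocyte genes were 3275 to 6891 in kidney and 188900 to 378100 in intestine. For goblet and Paneth genes they were 1153 to 4533 and 247700 to 270200. All 12 cardiomyocyte genes were lower with all libraries (median −4.46) but 4 without replicate 1. Of the other lists, 10 of 11 acinar genes (median −3.35), 4 of 6 islet genes (−3.21), 5 of 7 granulosa and theca genes (−2.02), 6 of 7 oocyte genes (−1.81), 1 of 10 enterocyte genes (−1.81) and 0 of 8 goblet and Paneth genes (−1.78) were lower. Without replicate 1 the last 2 medians were −0.97 and −0.36. These counts rest on the mean of 4 tissues of which 1 expresses the list, and stand beside 30.9% lower and 24.5% higher over all genes. Of 7 adrenal cortex genes 2 were higher (median 0.3) and 0 without replicate 1 (median −1.0), and Cyp11b1 gave 2184, 117.3 and 0 reads. Of 8 adipocyte genes 4 were higher and none enriched, with Ucp1, the heat-producing uncoupler of brown fat, at 900.8, 527.1 and 116.5 reads. The summed reads of the list were 3192 to 9030 in kidney and 7894 to 8651 in heart. Of 5 genes of the urothelium, which lines the renal pelvis, 3 were higher and 1 was lower, or 3 and 0 without replicate 1, and their summed reads were 170.3 to 217.2 in kidney and 744.7 to 908.4 in ovary. Krt5 and Upk3a of this list were enriched at 39.23, 26.95 and 56.67 and at 24.32, 38.04 and 48.01 reads, against at most 2.857 and 3.854 elsewhere. Of 5 erythroid genes 0 passed, with a median of −0.02, or 0.4 without replicate 1.

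Of 82 genes of cytosolic ribosomal proteins 77 were lower and 0 higher in kidney, with a median difference of −0.82, and of 81 oxidative phosphorylation genes 47 were higher and 3 lower, with a median of 0.31. Without replicate 1 those counts were 76 lower, and 33 higher with 1 lower. Under the other scalings tried, 78 ribosomal protein genes were lower and 33 to 58 oxidative phosphorylation genes higher. Without the ovary libraries 14 oxidative phosphorylation genes were higher and 13 lower, and the median was −0.02. For the ribosomal protein list, summed reads were 142000 to 183500 in kidney and overlapped with heart, at 178100 to 206800. They were higher in small intestine (231700 to 301500), ovary (254000 to 316200) and pancreas (486000 to 574300). Summed reads of the oxidative phosphorylation list were 191300 to 228900 in kidney and higher in heart, at 428800 to 534400. The most abundant mitochondrial transcript, mt-Co1, gave 283700, 258800 and 293900 reads in kidney and a mean of 829500 in heart.

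The same rules applied to the FMTg libraries gave 426 enriched genes (2.46% of those tested) and 81 depleted genes (0.468%). Of the 446 enriched genes of Tg mice, 363 were found again, which is 81.4% of the Tg set and 85.2% of the FMTg set, and of the 41 depleted genes 26, which is 63.4% and 32.1%. Kidney lay beyond every other tissue in FMTg mice for 443 of the 446 and for 41 of the 41. Umod lay 8.23 above the next FMTg tissue, and Foxi1 5.03, while Cyp4a14 dropped to 3.94. Gata4 lay 6.54 below the lowest FMTg tissue, a distance of −6.54 beside −5.75 in Tg mice. Heart replicates 4 and 5 of the FMTg group held large amounts of liver transcripts, with 1001000 and 144000 reads of Alb, the albumin gene. Without these 2 libraries 382 enriched genes (85.7%) and 26 depleted genes were found again. Without FMTg replicates 4 and 5 of every tissue 289 enriched genes (64.8%) and 30 depleted genes (73.2%) were found again. Kidney transcripts also occurred in the FMTg pancreas group. Its highest library held 52350 summed reads of the thick ascending limb list, beside a group median of 3116 and 125000 to 166100 in FMTg kidney. The part of that library in the repeat was not tested. A test of the difference between genotypes in the kidney contrast called 1 of 17319 genes at an adjusted p below 0.05 and 293 at an unadjusted p below 0.05, and among the 446 and 41 genes it called 0, with 3 and 5 at an unadjusted p below 0.05.

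**Figure D5:**
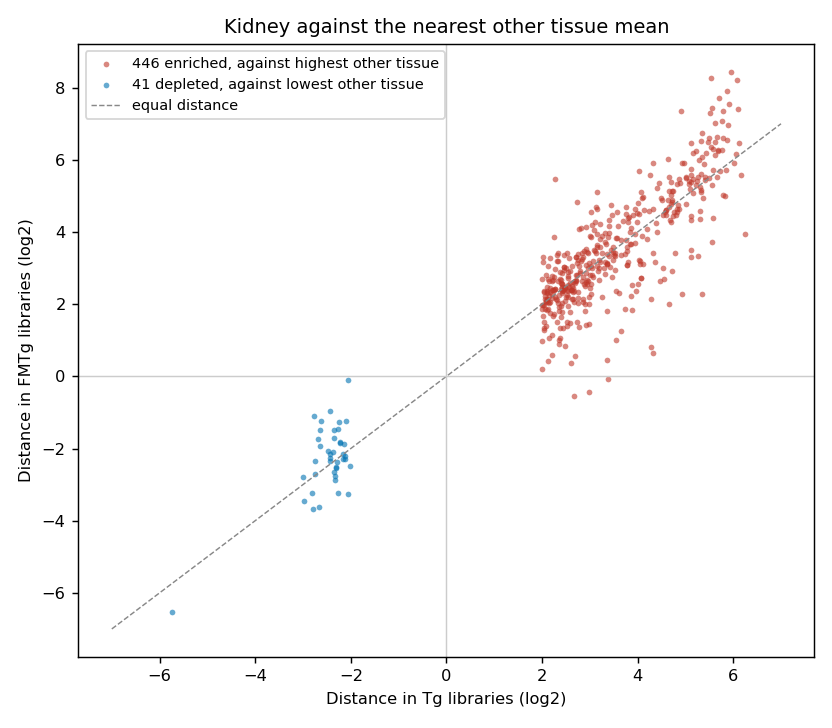
Distance of the kidney mean from the nearest other tissue mean (log2) in Tg libraries on the x axis and FMTg libraries on the y axis, for the 446 enriched genes against the highest other tissue and the 41 depleted genes against the lowest. Points near the dashed line have equal distances, and 443 enriched genes stay above 0 on the y axis.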

How the data were processed

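RNA of 5 tissues of 3 Tg mice was sequenced, 1 library per tissue and mouse. Per the submitters' processing notes, reads were aligned with STAR 2.6.0b to GRCm38 and processed with DESeq2. How reads were counted per gene, on which annotation and strand, and why 18024 genes were kept is not given in the sources used here. The authors deposited log2 values on the variance-stabilised scale of DESeq2, computed over all 40 libraries, in which a gene without reads has the value 1.65. Inverting that scale gave whole read numbers for 100% of values (tolerance 0.01), from which the reads per library and the normalised reads printed here were computed. Levels per kb divide normalised reads by gene length, and gene positions are those of GENCODE M21.

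Differences, standard errors and p-values come from limma 3.58.1 in R 4.3.3 with a mean-variance trend, fitted to the deposited log2 values of the 15 Tg libraries with 1 mean per tissue. The 17319 genes at least 1 above the lowest value in at least 3 libraries were tested, and p-values were Benjamini-Hochberg adjusted over all of them. Folds are powers of 2 of these differences and are compressed for genes with few reads. The code was tested on simulated data. Same-numbered Tg libraries come from the same mouse, per the labels' sample ids. Their deviations from the tissue means had a mean correlation of 0.0608 over 30 pairs (−0.179 to 0.415), against −0.0311 between mice.

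Named genes were the 20 enriched and 15 depleted with the largest distance, leaving out predicted models, up to 5 genes of each list with the smallest p, the listed pairs of related genes and the genes next to the limit of 2. Others were named after their values were seen, among them further list members and the genes of the closing section. The members, lists and rules were chosen with earlier results of these data known. The alternatives were other filters, scalings and models, the mouse as a block, other limits, and fits without single libraries, replicates or tissues. With 3 libraries per tissue, counting error and the spread between 3 mice limit the precision. Some genes that the rule names are not reported here.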

Additional observations from a re-analysis of the deposited data

Results flagged for a closer look

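Alb, the albumin gene of liver, gave 1001000 normalised reads in FMTg Heart replicate 4, far from the other 4 FMTg heart libraries. Replicate 5 gave 144000 and the remaining 3 gave 10.29 to 68.12. Fga, a fibrinogen chain also made by liver, gave 49010 and 7302 in replicates 4 and 5 and 0.7915 to 39.12 in the others. The criterion for a far value marks about 1 in 20 groups of like samples by chance. These libraries enter only the repeat in FMTg mice, which is given above with and without them.

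Gtse1, a mitotic gene whose product restrains p53, differed between the genotypes in the contrast of kidney with the other tissues. The kidney contrast was 2.31 higher on the log2 scale in FMTg than in Tg mice (limma interaction, adjusted p = 0.0221). In Tg kidney it gave 16.48, 21.4 and 40.93 normalised reads, against 12.29 to 254.3 in the other tissues.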

How the results depend on the processing

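Leaving out 1 library at a time gave 7771 to 9937 genes in the contrast with the mean of the others (3602 to 4422 higher, 4167 to 5624 lower), 257 to 291 list members higher and 128 to 166 lower, 430 to 461 enriched and 34 to 49 depleted genes. Against single tissues these fits gave 4617 to 5394 higher and 3786 to 4390 lower than pancreas, 3497 to 4078 and 4736 to 5654 for ovary, 3696 to 4337 and 4004 to 4746 for heart, and 3754 to 4506 and 4459 to 5456 for small intestine. With the mouse as a replicate block 451 genes were enriched and 44 depleted, all 446 and 41 among them, and no named gene changed its call in the contrast with the mean of the others. The depleted set was larger with voom on the recovered reads (114, of which 36 of the 41, or 95 with TMM scaling) and without the pancreas (119), heart (132) or intestine (91) libraries, which leave fewer tissues to be below. A limit of 1 gave 851 enriched and 333 depleted genes, and a limit of 3 gave 252 and 2. Treating the 12 others as 1 group, which adds the differences between them to the error, gave 2373 genes, 1528 higher and 845 lower, with 169 and 22 list members. Without replicate 3 of every tissue 6037 genes passed, 2818 higher and 3219 lower, with 2844 lower than pancreas, 2571 higher and 3342 lower than ovary, 2727 higher than heart, and 2726 higher and 3354 lower than intestine; 324 of the 446 and 30 of the 41 remained, and fewer samples were tested. Medians over all genes lay between −0.166 (centred libraries) and −0.0167 (TMM scaling). No named gene called in the contrast with the mean of the others was called in the opposite direction under these alternatives. Differences that did not pass could change sign, as the erythroid list median moved from −0.02 to 0.4 without replicate 1. The cause of other changes was not tested. Genes at few reads, such as Epo, are limited by counting error.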

Other observations

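Several further enriched genes, named after their values were seen, describe kidney functions outside the lists above. Col4a3 and Col4a4, chains of the collagen IV network of the glomerular basement membrane, gave 6954, 8115 and 6821 and 6557, 6684 and 6632 normalised reads, and both lay above ovary, the next tissue, by 4.76 and 3.51. The groups did not overlap for either. The claudin genes Cldn2, which forms a cation and water pore in the proximal tubule, and Cldn8, of the distal nephron, lay 2.36 above intestine and 2.55 above pancreas. Receptors among the enriched genes included Gcgr, the glucagon receptor (437.8, 550.8 and 468.3 reads against 2.399 to 76.3), and Adra2b, an adrenoceptor (2317, 2998 and 3823 against 4.104 to 378.4). Napsa, an aspartic protease, gave 28890, 25930 and 35440 reads and lay 5.22 above intestine, and Spp1, osteopontin, gave 18330, 16340 and 18210 and lay 2.48 above pancreas. Folr1, a folate receptor, and Defb1, a beta-defensin, lay 3.25 above ovary and 5.07 above intestine.

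Genes best known from liver were represented in kidney in part. Fga and Fgg, chains of fibrinogen, gave 727.4, 1128 and 1766 and 330.3, 419.3 and 1041 normalised reads, and lay 3.54 and 3.37 above heart. Gc, the vitamin D binding protein, gave 1711, 2012 and 2388. Alb, the most abundant liver transcript, gave 170.3, 92.73 and 99.17 in kidney and 0.8365 to 767.3 elsewhere, so the groups overlapped (0.95 ± 1.28, adjusted p = 0.545).

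Spc25, a kinetochore gene, was enriched at 444.1, 666.6 and 629.6 reads against 19.22 to 102, while all 12 genes of the mitosis list were lower. Vmn1r19 and Vmn1r20, vomeronasal receptor genes with near-identical relatives that can share reads, gave 141.2, 68.16 and 98.38 and 149.1, 72.12 and 129.9 reads, against at most 14.64 and 31.6. Myh1, a fast skeletal muscle myosin, gave 78.47, 28.53 and 6.296 against at most 2.052. Klf1, an erythroid transcription factor, lay 2.02 above heart, at 21.97, 30.12 and 40.14 reads. Cdkn1a, a p53 target, gave 240.1, 210 and 281 reads in kidney against 341.5 to 2508 in the other tissues (−2.10 ± 0.26, adjusted p = 2.79e-05). No explanation was tested for these values.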
